A study of Rattus norvegicus with 2 samples.

Results

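The genes described here are 37 genes of protein folding, quality control and stress sensing in the endoplasmic reticulum (ER), chosen by gene name from the 27103 named genes that had a probe on the arrays. They comprise 16 chaperones and folding enzymes, 12 factors of ER-associated degradation (ERAD), 6 genes of the stress sensors and their processing, and 3 genes of the translocon, the channel through which new proteins enter the ER. The cells were IEC6, an established, non-transformed line from rat small intestinal epithelium, grown in dishes. One dish condition received 100 µM sodium trisulfide (Na2S3), an inorganic polysulfide, for 60 min and the control received water for 60 min, both in low-serum medium. This dose is that of the label and of the design text, whereas the treatment protocol writes the same number in mM, and the labels do not settle which is right. Total RNA of each condition was hybridised to 1 Agilent single-colour array, so there is 1 array per group, no replicate and no test between the groups, and "higher" and "lower" describe these 2 arrays.

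ER chaperones hold newly made proteins until they fold, and protein disulfide isomerases form and exchange their disulfide bonds. Proteins that fail to fold are drawn back through the ER membrane, ubiquitinated and degraded by ERAD. When unfolded proteins accumulate, the sensors IRE1 (gene Ern1), PERK (Eif2ak3) and ATF6 (Atf6) start the unfolded protein response, in which IRE1 splices Xbp1 RNA, PERK phosphorylates the translation factor eIF2alpha and so raises ATF4 protein, and ATF6 is cut by the proteases of Mbtps1 and Mbtps2 to release a transcription factor. ATF6 and spliced XBP1 induce chaperone and ERAD genes, whereas ATF4 is also reached by other eIF2alpha kinases that do not sense the ER. The arrays read RNA amounts, and neither Xbp1 splicing nor the cleavage or phosphorylation of a protein was measured.

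Signals are given below as multiples of the array's own 75th percentile over non-control probes, which was 478 intensity units in the Na2S3 array and 413 in the water array, and each ratio is the Na2S3 array over the water array on the log2 scale. Of 45598 probes, 49.0% were well above background in the Na2S3 array and 49.5% in the water array. The epithelial genes Krt8 (38.3 times the 75th percentile in the Na2S3 array and 38.4 in the water array) and Cdh1 (34.1 and 35.6) were bright on both arrays, but only 6 of 15 epithelial markers with a probe were well above background on both, and Epcam, Vil1, Cdx2 and Fabp2 were not. Of 10 fibroblast markers, 8 were, among them Col1a1 at 147 in the Na2S3 array and 173 in the water array, but not Pdgfra and Pdgfrb. Of 9 immune and endothelial markers, 5 were. Ptprc, Cdh5 and Cd68 were dim (0.0567, 0.102 and 0.178 in the Na2S3 array). Vwf, at 4.72 in the Na2S3 array and 6.01 in the water array, and Tek, at 1.88 and 2.03, were brighter. The median ratios of the epithelial, fibroblast and immune lists were -0.03, -0.25 and -0.27. These medians hold for the 75th percentile scaling. Of the 5 negative fibroblast markers, Col1a1 and S100a4 stood at -0.04 with quantile normalization. Col1a2, Thy1 and Acta2 stood at -0.26, -0.31 and -0.22 with it. For bulk RNA of this kind, a lower level cannot be told apart from fewer cells carrying the transcript.

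The ER genes as a whole had nearly the same signals on both arrays, as did most measured genes (93.6% within 1.5-fold). Herpud1, an ERAD gene, stood apart from the other ER genes. Of the 37 genes, 36 had a probe by name and 35 were measured, that is, well above background on both arrays. A 2-fold higher signal in the Na2S3 array was reached by 0 of the 35, where 0.945% of all 13019 measured genes reached it, and a 2-fold lower one by 0 of the 35, where 0.614% did (1.56% either way). The 1.5-fold size was passed upward by Herpud1 alone (1 of 35), beside 2.95% of all measured genes, and downward by 0 of 35, beside 3.42% (6.37% either way). In a set of 35 such counts lie near these shares, so they do not set the ER genes apart from the rest. The median log2 ratio over the 35 genes was -0.06, with a range of -0.33 to 0.96, beside a median of -0.04 over all measured genes. Ratios within 0.2 of 0 were found for 26 of the 35 (74.3%), and for 60.0% of all measured genes. These shares are not matched for signal, and many of the 35 genes are bright. The SD of the ratio over repeat spots was 0.61 for the dimmest probes and 0.06 for the brightest. The part of brightness in the shares was not tested.

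**Figure D1:**
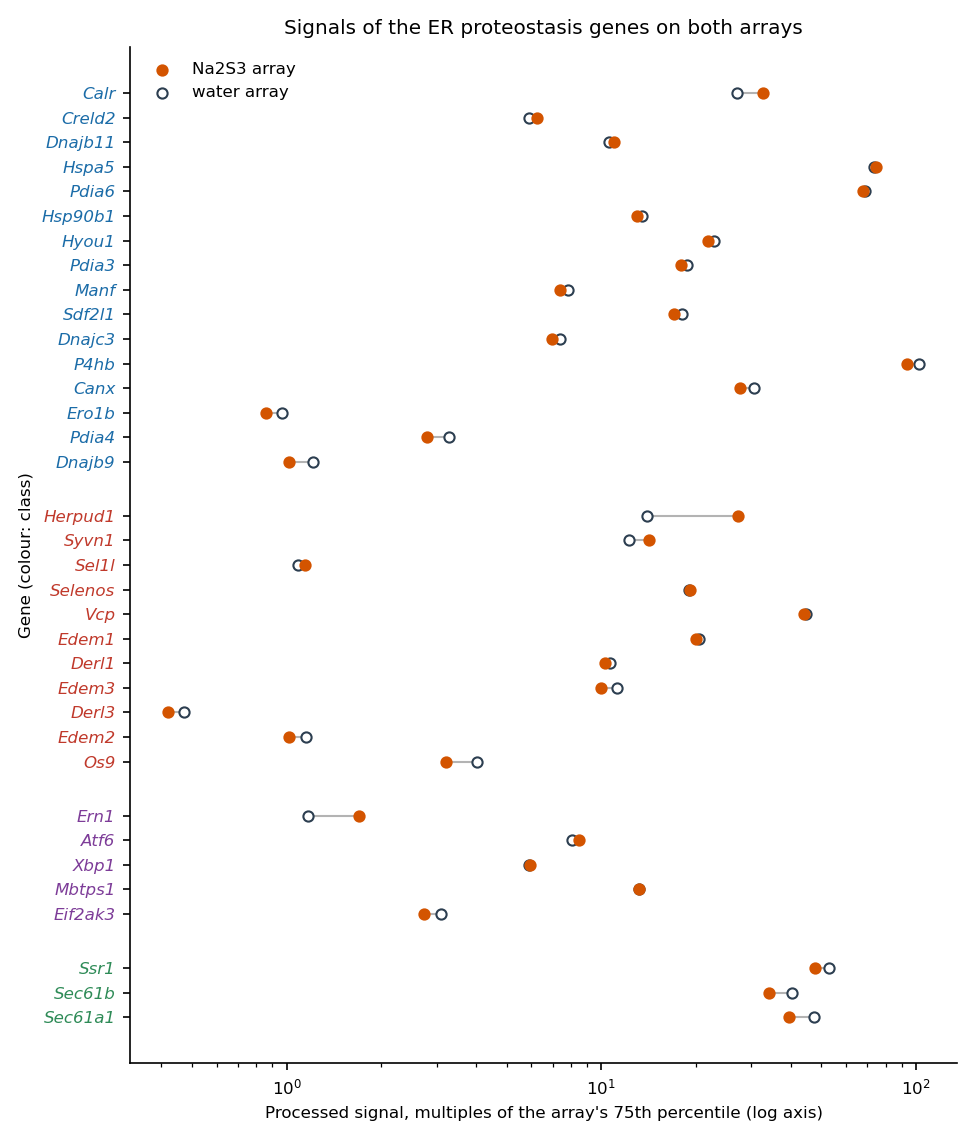
Processed signal of the 35 measured ER genes on the Na2S3 array (filled) and the water array (open), as multiples of each array's 75th percentile on a log axis, 1 array per group. Genes are grouped by class (chaperones and folding enzymes, ERAD factors, sensors, translocon) and the points of most genes nearly coincide, with Herpud1 at 27.2 and 14.0 the widest apart.

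Several measures of error bear on a single ratio. Repeat spots of one probe, taken over probes of like brightness, gave a spot error of 0.02 to 0.16 for these genes, with a median of 0.08, and 16 of the 35 ratios were no larger than their own spot error. The scanner software's own error model, dominated by a fixed proportional term, gave 0.20 to 0.21, and 9 of 35 ratios exceeded it: those of Herpud1, Ern1, Calr and Syvn1, which were positive, and of Os9, Sec61a1, Dnajb9, Sec61b and Pdia4, which were negative. Different probes of one gene differed with an SD of 0.24 across the 3214 genes with more than 1 measured probe. None of these measures covers the spread between cultures, which 1 array per group cannot show.

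Among the Hsp70 system of the ER, Hspa5 had nearly the same signal on both arrays at the reported scaling. It encodes BiP, the main Hsp70 chaperone of the ER and the most used marker of ER stress. Its probe was spotted 10 times and read 74.5 in the Na2S3 array and 73.7 in the water array, a log2 ratio of 0.02, and the SD over its 9 usable spots was 0.03. Hyou1, a large Hsp70 relative that exchanges nucleotide on BiP, read 21.9 in the Na2S3 array and 22.8 in the water array (-0.06). Hsp90b1, the ER Hsp90 known as GRP94, read 13.0 in the Na2S3 array and 13.5 in the water array (-0.06). At this scaling the 3 most central chaperones of the ER thus differed by no more than their spot errors of 0.02 to 0.07. Hspa5 exceeded its spot error under some alternatives, at 0.08 with normexp, 0.14 with loess and 0.19 with quantile normalization and in the deposited table. Hyou1 and Hsp90b1 stayed within theirs.

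The J-domain partners of BiP stood between -0.25 and 0.05. Dnajb9, known as ERdj4 and a target of spliced XBP1 in other studied systems, had the lowest ratio of all the chaperones, at 1.02 in the Na2S3 array and 1.21 in the water array (-0.25, spot error 0.10). Dnajb11, a soluble J protein that hands substrates to BiP, read 10.97 in the Na2S3 array and 10.6 in the water array (0.05). Dnajc3, known as p58IPK, a J protein that also restrains PERK, read 6.98 in the Na2S3 array and 7.42 in the water array (-0.09).

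Smaller and secreted ER stress proteins lay close to 0 as well. Sdf2l1, a partner of the J proteins, read 17.0 in the Na2S3 array and 18.1 in the water array (-0.08). Manf, a secreted ER stress protein that binds BiP, read 7.41 in the Na2S3 array and 7.82 in the water array (-0.08), and Creld2, another ER stress gene, read 6.24 in the Na2S3 array and 5.89 in the water array (0.08). All 3 are genes that ER stress is known to raise, and their ratios were smaller than the software's error.

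The lectin chaperones hold glycoproteins in the folding cycle. Calr, which encodes calreticulin, a soluble calcium-binding lectin, had the highest ratio of the class, reading 32.7 in the Na2S3 array and 27.1 in the water array, 1.21-fold higher (0.27, spot error 0.07). Canx, its membrane-bound relative calnexin, read 27.5 in the Na2S3 array and 30.5 in the water array (-0.15), while its second probe, much dimmer at 0.147 in the Na2S3 array and 0.135 in the water array, gave 0.13. Calr kept a positive ratio under every alternative processing (0.27 to 0.36) and Canx a negative one (-0.17 to -0.0073).

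Disulfide isomerases were at or slightly below the control level. P4hb, the founding protein disulfide isomerase, read 93.6 in the Na2S3 array and 102.5 in the water array over 10 spots (-0.13, SD over spots 0.05). Pdia6 read 68.0 in the Na2S3 array and 69.0 in the water array over 10 spots (-0.02, SD over spots 0.13), and Pdia3, the isomerase that works with calnexin and calreticulin, read 18.0 in the Na2S3 array and 18.8 in the water array (-0.06). These 3 bright isomerase genes thus lay within 0.2 of 0. Pdia4, the isomerase known as ERp72, was the lowest of them, at 2.80 in the Na2S3 array and 3.29 in the water array (-0.23, spot error 0.08). Ero1b, an oxidase that recharges the isomerases and that the files name Ero1lb, read 0.861 in the Na2S3 array and 0.967 in the water array (-0.17), while its other probe stayed at background. Across the 16 chaperones and folding enzymes the median was -0.07, 4 ratios were positive and 12 negative, and 0 of 16 passed 1.5-fold. That median turned to 0.0086 to 0.01 with cyclic loess, with quantile normalization and in the authors' deposited table, so the sign of the class is not settled.

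The translocon genes had the lowest class median, -0.25, with all 3 ratios negative. Sec61a1, the pore-forming subunit, read 39.5 in the Na2S3 array and 47.5 in the water array, 1.202-fold lower (-0.27), and its 8 spots usable on both arrays had an SD of 0.12. Sec61b, a small subunit of the same channel, read 34.1 in the Na2S3 array and 40.5 in the water array (-0.25). Ssr1, a subunit of the translocon-associated TRAP complex, read 47.6 in the Na2S3 array and 52.8 in the water array (-0.15), and its 3 probes agreed closely, from -0.18 to -0.12. The fibroblast and the immune and endothelial markers had medians as low, and their part in these ratios was not tested. The 3 genes stayed negative under every alternative, but their median was nearer to 0, at -0.15, with quantile normalization, with loess and in the authors' deposited table.

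Herpud1 had the highest ratio of all 35 genes. It encodes HERP, an ER membrane protein with a ubiquitin-like domain that organises the ERAD ubiquitin ligase complex, and it is known to respond to ATF6, XBP1 and ATF4. Its signal was 27.2 in the Na2S3 array and 14.0 in the water array, which is 1.94-fold higher (log2 ratio 0.96, spot error 0.07, software error 0.20). Only 138 of the 13019 measured genes had a higher ratio. The value rests on 1 probe with 1 spot per array, with no outlier flag, at chromosome 19, 11036709 to 11036768 on the minus strand in the rn4 coordinates of the files. Which part of the transcript that stretch belongs to was not analysed here. Under the 9 alternatives the ratio ran from 0.96 to 1.04. It passed 2-fold under 4 of them: the deposited table, spike-in scaling, cyclic loess and quantile normalization. The 9 are not separate checks. No filter, the median over probes and names by accession kept the same probe and value, and median scaling hardly moved it. The deposited table and quantile normalization gave nearly the same value, both 1.02.

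The other ERAD genes did not share this ratio. Syvn1, the ubiquitin ligase HRD1 that HERP recruits, read 14.2 in the Na2S3 array and 12.3 in the water array (0.21), but its dimmer probe, at 0.140 in the Na2S3 array and 0.205 in the water array, gave -0.56. Sel1l, the adaptor of HRD1, read 1.15 in the Na2S3 array and 1.09 in the water array (0.07). Selenos, a selenoprotein that tethers the ATPase VCP to the ER and is named Vimp in the files, read 19.1 in the Na2S3 array and 19.0 in the water array (0.0084). None of these 3 brightest probes came near the Herpud1 ratio. Vcp, the ATPase that pulls substrates out of the membrane, read 44.0 in the Na2S3 array and 44.6 in the water array (-0.02). Of the 5 genes Herpud1, Syvn1, Sel1l, Selenos and Vcp, Herpud1 was thus the only one past 1.5-fold.

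The mannosidase-like Edem genes, whose products mark glycoproteins for degradation, were at or below 0. Edem1 read 19.99 in the Na2S3 array and 20.5 in the water array over 2 spots (-0.04), with dimmer probes at -0.14 and -0.51. Edem2 read 1.02 in the Na2S3 array and 1.16 in the water array (-0.18), and Edem3 read 10.0 in the Na2S3 array and 11.2 in the water array (-0.16). The 2 dim probes of Edem3, both below 0.11, gave -0.53 and 0.44, on opposite sides of 0.

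Lectins and derlins, which deliver substrates and form part of the exit channel, were likewise not higher. Os9, a lectin that passes glycoproteins to the HRD1 complex, had the lowest ratio of all 35 genes, at 3.21 in the Na2S3 array and 4.04 in the water array, 1.26-fold lower (-0.33, spot error 0.08), but its other probe gave 0.09. Derl1 read 10.3 in the Na2S3 array and 10.66 in the water array (-0.05), and Derl3, with a weak signal of 0.419 in the Na2S3 array and 0.472 in the water array, gave -0.17 and, at its other measured probe, -0.46. Derl2 had no probe under its name. A probe that the files describe as resembling mouse Derlin-2, which was looked up after the others, read 3.89 in the Na2S3 array and 4.16 in the water array (-0.09). The 11 measured ERAD genes had a median of -0.04, with 4 positive and 7 negative ratios, and the median was 0.0065 to 0.04 under spike-in scaling, in the deposited table, and after quantile or loess normalization, but -0.12 with the median over probes.

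**Figure D2:**
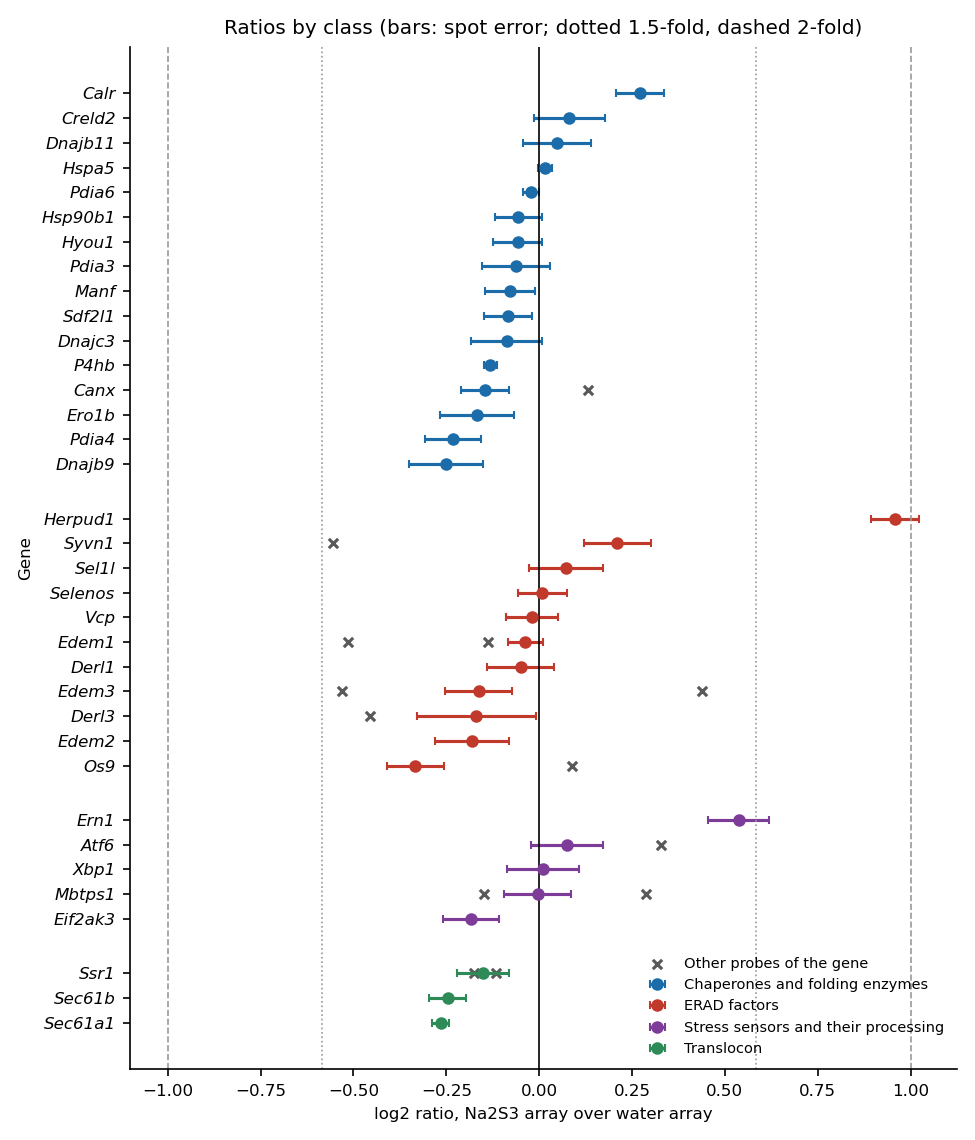
Log2 ratio, Na2S3 array over water array, of the 35 measured ER genes by class, 1 array per group. Circles are the brightest measured probe with its spot error, crosses are other measured probes, and dotted and dashed lines mark 1.5-fold and 2-fold. Herpud1 (0.96) and Ern1 (0.54) lie to the right of all other genes, and several crosses lie far from their circle.

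Among the sensors, Ern1 had the second highest ratio of the whole set. Ern1 encodes IRE1alpha, the kinase and endoribonuclease that splices Xbp1 RNA. It read 1.70 in the Na2S3 array and 1.17 in the water array, 1.45-fold higher (0.54, spot error 0.08), just under the 1.5-fold size, and 452 measured genes had a higher ratio. The alternatives gave 0.48 to 0.58, all positive and all under 1.5-fold. The value is from 1 probe with 1 spot per array at chromosome 10, 95790831 to 95790890 on the minus strand in rn4, and the other Ern1 probe stayed at background.

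The other sensor genes lay within 0.2 of 0 at their brightest probe. Atf6 read 8.50 in the Na2S3 array and 8.07 in the water array (0.07), and its dimmer probe, at 1.65 in the Na2S3 array and 1.32 in the water array, gave 0.33. Xbp1, measured by 1 probe that gives 1 level for the gene, read 5.93 in the Na2S3 array and 5.89 in the water array (0.01). Eif2ak3, the gene of the sensor kinase PERK, read 2.73 in the Na2S3 array and 3.10 in the water array (-0.18). Xbp1, a gene that ATF6 is known to raise, thus differed by less than its spot error of 0.10.

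The proteases that cut ATF6 completed this class. Mbtps1, the site-1 protease gene, read 13.2 on both arrays (-0.0039), and its 3 probes ran from -0.15 to 0.29. Mbtps2, the site-2 protease gene, has no ratio here, since neither of its probes was well above background. The 5 measured genes of the class had a median of 0.01, with 3 positive and 2 negative ratios.

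The promoters of these genes carry known elements of the response, which allows the ratios to be set beside the sequence. RefSeq's GRCr8 promoter table, from 250 bases before to 50 bases after each gene's start, held 29 of the 37 genes, without Atf6, Derl1, Ern1, Manf, Os9, Pdia3, Pdia6 and Sec61a1. The ER stress response element ERSE (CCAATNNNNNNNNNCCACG), bound by NF-Y and ATF6 or XBP1, was found on either strand in 9 of 29 (31.0%) and in 22 of all 33469 promoters (0.0657%). Its relative ERSE-II (ATTGGNCCACG) was in 3 of 29 (10.3%) and in 17 of all promoters (0.0508%). ERSE was defined in promoters of genes such as Hspa5, Hsp90b1 and Calr, so its presence here restates how the element was found. The genes in which ERSE-II was defined were not checked here, so its share is no separate support either. The shorter core ACGTGG, which overlaps CCACG where the next base is T, was in 8 of 29 and in 7.84% of all promoters. Shares of the 29 count genes with a match in any of their promoters, and shares over all count single promoters. A gene can have several promoters, as Hyou1 has, so the units differ.

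The Herpud1 promoter is shown because the gene had the highest ratio, and that of Hspa5 because it is the classic ER stress target and had a ratio of 0.02. Each covers the 250 bases before the start and reads 5′ to 3′ along the gene's strand, at chr19:10614708-10614957 (minus strand) for Herpud1 and chr3:38452766-38453015 (plus strand) for Hspa5, both in GRCr8. Capitals mark matches to ERSE, ERSE-II, ACGTGG and TGATGNAA, the core that C/EBP and ATF factors such as ATF4 and CHOP bind together, on either strand.
Herpud1: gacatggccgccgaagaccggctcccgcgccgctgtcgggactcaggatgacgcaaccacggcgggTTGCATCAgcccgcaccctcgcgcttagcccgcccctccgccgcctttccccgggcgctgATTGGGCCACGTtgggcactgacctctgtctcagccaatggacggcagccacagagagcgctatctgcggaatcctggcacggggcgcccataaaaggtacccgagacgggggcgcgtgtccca
Hspa5: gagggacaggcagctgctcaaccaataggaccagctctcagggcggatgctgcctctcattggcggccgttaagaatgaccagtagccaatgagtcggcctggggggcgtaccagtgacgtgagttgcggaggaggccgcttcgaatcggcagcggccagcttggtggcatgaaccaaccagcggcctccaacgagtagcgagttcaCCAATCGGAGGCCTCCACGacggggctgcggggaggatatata
In Herpud1 the first match, 184 to 177 bases before the start, is the C/EBP-ATF core on the opposite strand, and the second, from 124 bases before the start, is ERSE-II joined to ACGTGG. The capitals in Hspa5 are ERSE, 43 to 25 bases before the start. Of the 29 genes with a promoter, Herpud1 was the only one with TGATGNAA (1 of 29, 3.45%). That share is no higher than the share over all promoters (1332 of 33469, 3.98%). In the ATF4 and CHOP genes described below the core was in 3 of 13, Chac1, Ppp1r15b and Trib3, and not in Atf4, Ddit3, Asns or Sesn2. It was also in Cdnf of the further ER folding genes (ratio -0.43) and in Hspa9 of the chaperones outside the ER (0.25). A match of letters is not a measured binding site.

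Other promoters with an ERSE or ERSE-II are given as windows of 8 bases either side of the match, in capitals, along the gene's strand in GRCr8, so that they can be read against the ratios. ERSE windows come first and ERSE-II windows last.
Calr, chr19:40213127-40213161: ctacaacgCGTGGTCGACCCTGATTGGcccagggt
Creld2, chr7:121789231-121789265: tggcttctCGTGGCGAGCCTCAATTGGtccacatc
Derl3, chr20:12766593-12766627: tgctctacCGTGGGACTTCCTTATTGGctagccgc
Dnajc3, chr15:102432526-102432560: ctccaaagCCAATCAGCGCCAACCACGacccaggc
Ero1b, chr17:92941450-92941484: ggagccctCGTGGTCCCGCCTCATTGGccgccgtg
Hsp90b1, chr7:23012339-23012373: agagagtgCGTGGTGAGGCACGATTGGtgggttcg
Hsp90b1, chr7:23012443-23012477: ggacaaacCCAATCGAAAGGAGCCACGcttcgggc
Xbp1, chr14:84604550-84604584: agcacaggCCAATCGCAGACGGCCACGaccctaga
Dnajb11, chr11:91672792-91672818: aggcggcgATTGGCCCACGcctggctg
Hyou1, chr8:53602686-53602712: aaccgtgaCGTGGGCCAATccgcagcc
Hyou1, chr8:53602786-53602812: gtcttctaCGTGGCCCAATggggacgt
The 9 genes with an ERSE had ratios between -0.17 (Derl3 and Ero1b) and 0.27 (Calr), and Hsp90b1, with 2 copies, had -0.06. Of the 3 genes with an ERSE-II, Herpud1 stood at 0.96, Dnajb11 at 0.05 and Hyou1, with 2 copies, at -0.06.

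Other genes of the same pathway gave the same picture as the chaperones. For the counts that follow, 6.37% of all measured genes passed 1.5-fold either way. Of 33 further ER folding genes, all of them measured, 0 passed 1.5-fold either way and the median was -0.08, with Cdnf at -0.43 (dim, spot error 0.34), Txndc11 at -0.29 and Selenok, an ER membrane selenoprotein, at -0.27 as the members farthest from 0. Of 25 measured further ERAD genes, 0 passed 1.5-fold and the median was -0.06 (0.02 with cyclic loess), with Rnf5, an ER membrane ubiquitin ligase, at -0.32 (and -0.05 at its other probe), Faf2, which recruits VCP, at 0.31 (0.22 at its other probe) and Erlin2 at -0.28. Of 18 further genes of the translocon and of signal sequence handling, 0 passed 1.5-fold and the median was -0.09. Sec61g, the third SEC61 subunit, stood at -0.31 over 10 spots, reading 67.4 in the Na2S3 array and 83.7 in the water array. Sec11c, a signal peptidase subunit, stood at -0.23 and Tram1 at -0.18. With quantile normalization the folding and translocon list medians were -0.03 and -0.02. Selenok, Sec61g and Tram1 then stood at -0.09, -0.14 and -0.10, whereas Cdnf, Txndc11 and Sec11c moved less, to -0.37, -0.28 and -0.18.

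The 17 measured further ER stress regulators had a list median of -0.08. Of them, 0 passed 1.5-fold upward (2.95% of all measured genes) and 2 passed it downward (3.42%). These 2 were Nfya, a subunit of the NF-Y factor that binds CCAAT, at -0.97, and Wfs1, the wolframin gene, at -0.60. Nfya read 0.186 in the Na2S3 array and 0.363 in the water array, its brightest probe stood at -0.65 with normexp and its other probe gave 0.27, and Wfs1 was dim at 0.0834 in the Na2S3 array and 0.127 in the water array and stood at -0.27 with normexp. Traf2, an adaptor that binds activated IRE1, had the highest ratio of the list at 0.48, reading 2.18 in the Na2S3 array and 1.56 in the water array.

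The ATF4 and CHOP list holds genes linked to ATF4 and the eIF2alpha kinases, and not all of them, Ppp1r15b among these, are taken here as ATF4 targets. It also holds Eif2s1, the gene of eIF2alpha, and 3 of those kinases, Eif2ak1, Eif2ak2 and Eif2ak4, which act upstream of ATF4. Of its 13 measured genes, 4 passed 2-fold upward (0.945% of all measured genes) and 9 passed 1.5-fold upward (2.95%). Downward, 0 passed 1.5-fold (3.42%), and the list median was 0.82. The list was chosen with earlier results of these data known. Atf4 itself read 60.5 in the Na2S3 array and 34.3 in the water array over 10 spots (0.82), and Ddit3, the gene of CHOP, read 37.3 in the Na2S3 array and 13.7 in the water array (1.45). Trib3, Sesn2 and Chac1 had the 3 largest ratios, at 4.54, 3.21 and 2.93. All 3 were dim in the water array, and with normexp they stood at 3.54, 2.37 and 2.49. Herpud1, at 0.96, lay above the median of this list, whereas the median of the other 34 ER genes was -0.06.

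The kinases and their substrate were the 4 genes of the list within 1.5-fold. Eif2s1 had -0.03, and beside Eif2ak3 at -0.18, Eif2ak1, the kinase known as HRI, had 0.16, Eif2ak2, the kinase PKR, had 0.03, and Eif2ak4, the amino acid sensor GCN2, had -0.23 (spot error 0.08). Chaperones outside the ER had a median of -0.20 over 14 measured genes (-0.03 with quantile normalization and in the deposited table, -0.07 with loess). Of these genes, 0 were past 1.5-fold upward and 1 downward, Hspa4 at -0.65. Hspa1a followed at -0.53 (-0.31 at its other probe) and Hsp90aa1 at -0.31. The 3 measured probes of Hsp90aa1 ran from -0.31 to -0.02, and its brightest probe stood at -0.14 with quantile normalization. Over all measured genes, 2.95% passed 1.5-fold upward and 3.42% downward. The medians of the ER, ATF4 and cytosolic lists are set side by side as values, and no test of their difference is possible with 1 array per group.

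**Figure D3:**
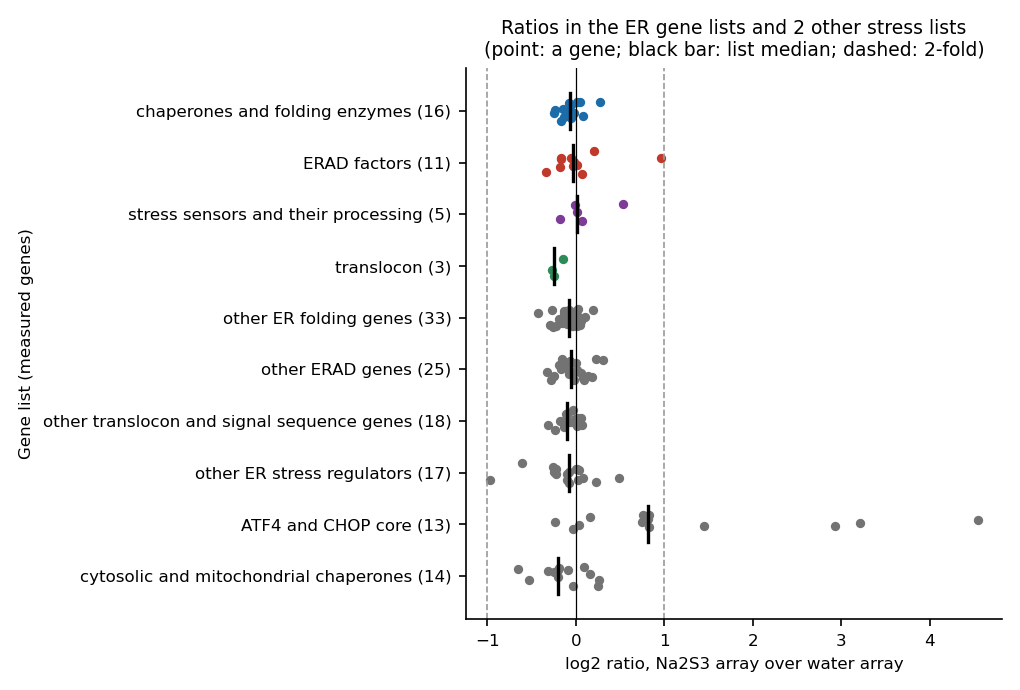
Log2 ratio, Na2S3 array over water array, of each measured gene in the 4 ER classes, in 4 lists of further ER genes and in the ATF4 and CHOP and the cytosolic and mitochondrial chaperone lists, with the number of measured genes in brackets and a black bar at the median. The ATF4 and CHOP genes reach 4.54 around a median of 0.82, while the ER lists have medians between -0.25 and 0.01.

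The sign of some small ratios depended on the processing. Over the reported setting and its 9 alternatives, where each gave a value, 10 of the 35 genes were always positive, 14 were always negative, and 11 turned sign. Among these 11, Hyou1, Hsp90b1, Pdia3 and P4hb were positive only with quantile normalization, with loess and in the deposited table. Pdia6 was positive in those settings and also with normexp and spike-in scaling. Syvn1 was negative only as the median over its probes (-0.17). The always positive genes included Herpud1, Ern1, Calr, Atf6, Xbp1, Sel1l and Hspa5, the last with ratios of 0.02 to 0.19. The always negative genes included Os9, Dnajb9, Pdia4, Eif2ak3 and the 3 translocon genes. Only Herpud1 was past 1.5-fold in every setting. The settings are not separate checks, since several of them returned the reported value for most genes.

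**Figure D4:**
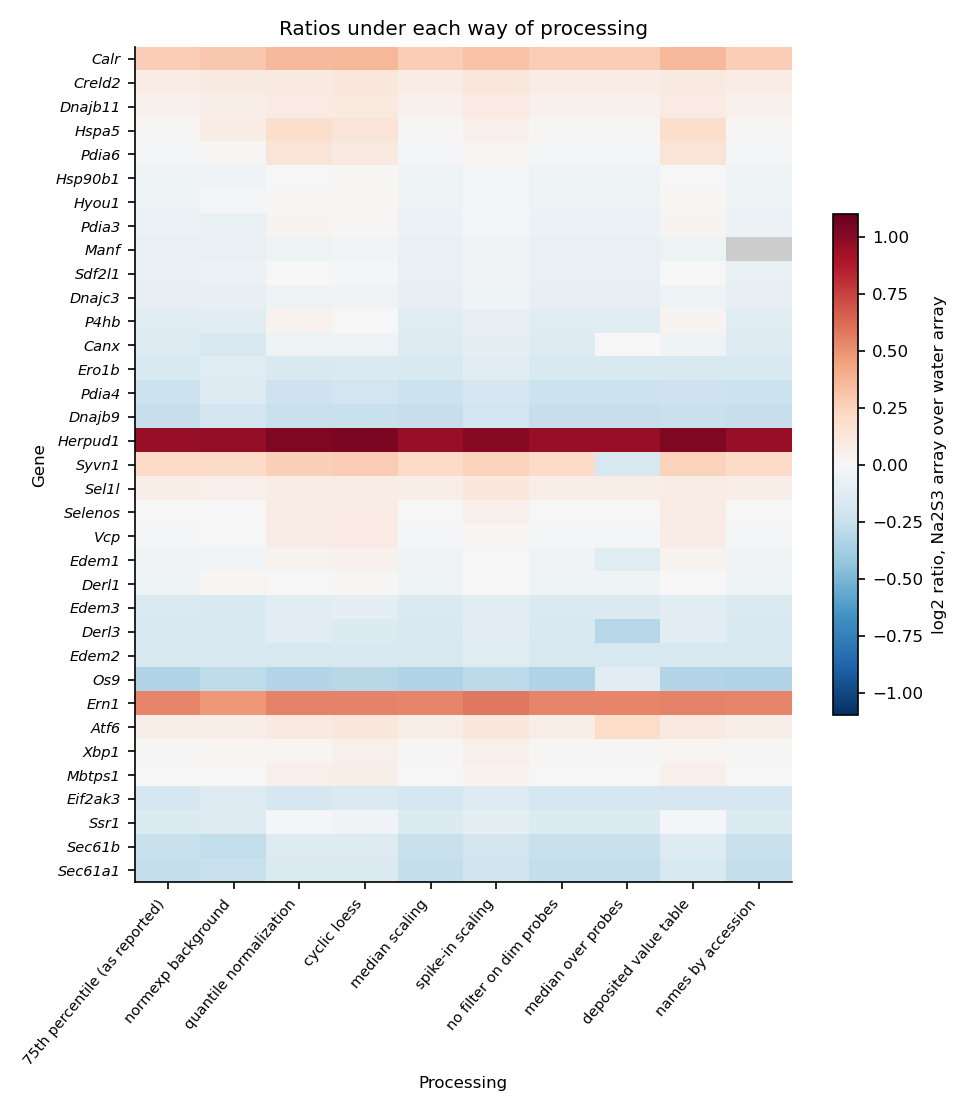
Log2 ratio, Na2S3 array over water array, of the 35 measured ER genes under the reported 75th percentile scaling and the 9 alternatives, red for positive and blue for negative, grey where a setting gives no value. The Herpud1 line stays near 1 and the Ern1 line near 0.5 across all columns, while most other lines stay pale.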

How the data were processed

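Total RNA from IEC6 cells, 1 sample per group, was labelled with Cy3 for single-colour Agilent arrays, as the labels' protocols state. The deposited scanner files hold spot intensity on a linear scale from Agilent Feature Extraction 10.7.1.1, per the file headers, whereas the submitters' processing notes name 9.5.1.1. The processed signal had its background subtracted and was detrended inside each array, per the file headers, partly on repeat spots, with no step between arrays. The second deposited source, a value table, is on a linear intensity scale with a median of 19.3 in both columns, and each column followed the processed signal of its own array (Pearson r 0.99997 over probes, log2). The sources used here give no method for it.

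Outlier spots (390 in the Na2S3 array, 448 in the water array) were dropped, and 0 were saturated. Log2 signals were averaged per probe and scaled by subtracting the 75th percentile of the 45598 non-control probes, which removed a shift of 0.21. A probe counted as well above background when more than 50% of its spots carried that flag. For a gene the brightest probe was taken among those above background on both arrays, under the name in the files, with Vimp read as Selenos and Ero1lb as Ero1b. In the other lists, 7 genes were found through RefSeq synonyms. The 9746 probes without a symbol were left out of gene counts. Spot errors come from 2319 probes with repeat spots, by signal. Alternatives were normexp (offset 50), quantile and cyclic loess normalization in limma 3.58.1, scaling to the median of probes above background or to 7 spike-in probes, no filter on dim probes, the median over probes, the deposited table, and names by RefSeq accession.

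Every gene with a probe is named, and of each other pathway list the 3 members farthest from 0. Other genes named, including Atf4, Ddit3 and the eIF2alpha kinases, were chosen after their values were seen. The members and lists were chosen with earlier results of these data known. The steps were tested on simulated spots. The number of arrays limits the precision. One promoter window is not reported here.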

Additional observations from a re-analysis of the deposited data

How the results depend on the processing

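Counts past a size depended on the processing where Herpud1 lay near it. At least 2-fold higher was 1 gene, Herpud1, in the deposited table, under spike-in scaling, after cyclic loess and after quantile normalization, against 0 as reported. With no filter on dim probes, 2 genes were at least 1.5-fold higher in place of 1, since Mbtps2, not well above background, then gave 0.85. The translocon median was -0.15 in place of -0.25 with quantile normalization, with loess and in the deposited table. The medians of all 35 genes, of chaperones and of ERAD genes kept within the spread of their members but changed sign under these 3 settings. Of 314 single-gene values under the alternatives, 259 lay within the gene's spot error of the reported one and 55 did not, 53 of them higher. Part of the 259 was fixed in advance, so they are not separate checks. With no filter the brightest probe stays the same, and the median over probes equals the only probe of many genes. Names by accession left the values it gave unchanged, and median scaling hardly moved any. Over all measured genes, normexp gave 61 genes at least 2-fold higher and 30 lower, against 123 and 80 as reported, and no filter gave 1062 and 1532, which took the higher share of calls to 40.9% in place of 60.6%. At 1.5-fold, normexp gave 180 higher and 165 lower and no filter 2065 and 3033, against 384 and 445. No paired analysis was possible because each group has 1 array. Signal over background limits the dim second probes, whose spot errors reach 0.61.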
